A study of Mus musculus with 6 samples.

Results

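Peroxiredoxins Prdx1 to Prdx6, catalase (Cat), glutathione peroxidase 1 (Gpx1) and the superoxide dismutases Sod1 and Sod2 are described here in livers of Klf1-/- mouse embryos set against livers of wildtype embryos. These 10 genes were chosen by name, as core enzymes that remove superoxide and peroxides; the rule used no measured value, but the choice was made with earlier results of these data known. On the platform's annotation 8 of the 10 had a probe set that names that gene alone, out of 19937 genes measured in this way; Prdx5 and Prdx6 were not analysed here. A gene with more than 1 such probe set was represented by the brightest.

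Livers came from 3 Klf1-/- embryos and 3 wildtype embryos of the FVB/NJ strain at embryonic day 13.5, from timed matings of Klf1 +/- mice. Klf1 encodes a Krüppel-like transcription factor of red cell precursors; how the knockout allele alters it is not described in the labels. Each whole liver was dissociated and its RNA was hybridised to 1 array, so n = 3 per group throughout. The labels do not say whether embryos of a group shared a litter, so the p-values speak of the spread among these 6 embryos alone. At this age the fetal liver consists largely of red cell precursors, with hepatoblasts, macrophages and other blood cells beside them.

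Superoxide dismutases turn superoxide into hydrogen peroxide, which catalase, the glutathione peroxidases and the peroxiredoxins then remove. Peroxiredoxins do so with a reactive cysteine that thioredoxin reduces again, and sulfiredoxin rescues peroxiredoxin that has been over-oxidised. Red cells carry hemoglobin, which generates superoxide as it oxidises, and they are rich in Prdx2, catalase and Gpx1. Mice that lack Prdx2 develop a hemolytic anemia.

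Levels are log2 intensities, changes are knockout minus wildtype on that scale, each ± limma's standard error, and a gene counts as called where its Benjamini-Hochberg adjusted p over all 19937 genes is under 0.05. Median intensities of the 6 arrays lay between 104 and 110 on the linear scale, and arrays correlated with the others of their group at a median r of 0.995 to 0.997. Klf1 itself read 9.05, 9.38 and 9.12 in knockout livers, against 10.59, 10.58 and 10.76 in wildtype livers. The Y-linked gene Uty read 9.97, 4.16 and 4.18 in knockout livers, against 4.28, 9.44 and 4.35 in wildtype livers. Each group thus mixed livers of high and low Y-linked signal. Precision is limited by how few arrays there are, and levels of different probe sets are not compared with each other. In whole livers fewer cells of a type and less RNA per cell cannot be told apart.

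Among the 8 measured antioxidant enzymes, Gpx1 and Prdx2 fell, Prdx1 rose, and Prdx3, Prdx4, Cat, Sod1 and Sod2 were not called. Gpx1 stood at 70.5% and Prdx2 at 73.6% of the wildtype level, and Prdx1 at 126%. The call rate of the 8 genes, 3 of 8, stands beside 19.1% of all genes called in this comparison. By direction, 1 of 8 was higher, where 10.8% of all genes were, and 2 of 8 were lower, where 8.26% were. Nothing about the group as a whole is read from counts this small. The median change of the 8 genes was -0.0020, beside -0.02 over all genes.

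**Figure D1:**
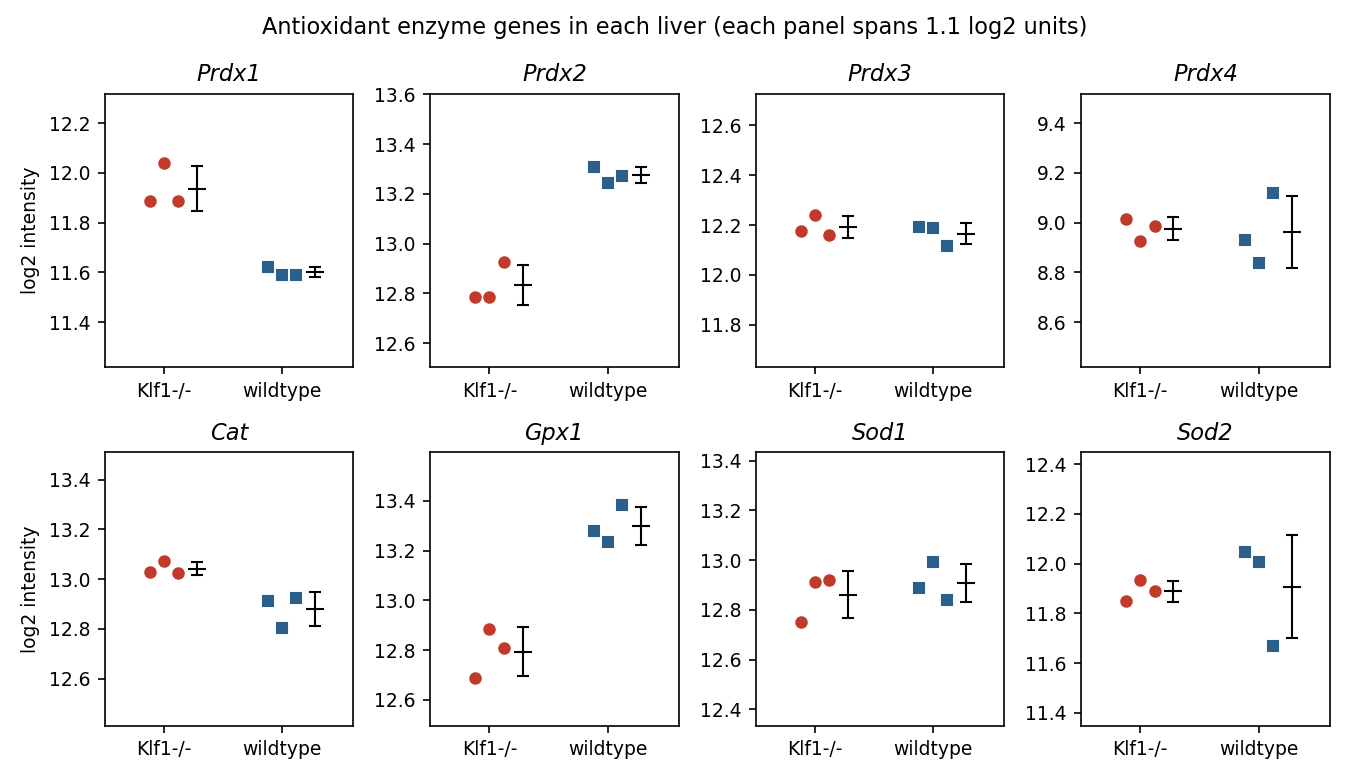
Log2 intensity of the 8 measured antioxidant enzyme genes in each of 3 Klf1-/- livers (red circles) and 3 wildtype livers (blue squares), with the group mean and SD beside the points; every panel spans the same 1.1 log2 units around its own centre. The groups are apart in Prdx1, Prdx2, Cat and Gpx1 and overlap in Prdx3, Prdx4, Sod1 and Sod2.

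Glutathione peroxidase 1 is a selenium enzyme of the cytosol and mitochondria that reduces hydrogen peroxide with glutathione. On the brightest probe sets it had the largest fall of the 8. Prdx2 on its dimmer probe set, described below, fell by more, at -0.65. Gpx1 read 12.69, 12.89 and 12.81 in knockout livers, against 13.28, 13.23 and 13.38 in wildtype livers. All knockout livers lay below all wildtype livers. Its mean was 12.79 ± 0.10 in knockout and 13.30 ± 0.08 in wildtype livers (SD, n = 3 each), a change of -0.50 ± 0.08 (limma adjusted p = 0.0019), or 1.42-fold.

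Prdx2, the cytosolic peroxiredoxin most abundant in red cells, read 12.79, 12.79 and 12.93 in knockout livers, against 13.31, 13.24 and 13.27 in wildtype livers. Again the groups did not overlap, and the wildtype livers differed from each other by less than the knockout livers did. The change was -0.44 ± 0.08 (limma adjusted p = 0.0026), or 1.36-fold.

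Prdx1 is the close cytosolic relative of Prdx2, found in most cell types. It read 11.89, 12.04 and 11.89 in knockout livers, against 11.62, 11.59 and 11.59 in wildtype livers. The knockout livers were all higher, with replicate 2 the highest. The change was 0.34 ± 0.08 (limma adjusted p = 0.013), or 1.26-fold, and it was not called without knockout replicate 2, at 0.28 (limma adjusted p = 0.066). That is the call of the 8 that 1 array decided.

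The 2 cytosolic peroxiredoxins thus changed in opposite directions. Within each array, Prdx2 minus Prdx1 was 0.90, 0.75 and 1.04 in knockout livers, against 1.69, 1.65 and 1.68 in wildtype livers. This within-array difference does not move with the centring of an array. It was lower by 0.78 in knockout livers (difference -0.78; exact 2-sided permutation p = 0.10, the smallest that 3 against 3 arrays allow, and 0.15 adjusted over 3 pairs). With the means of all their probe sets the difference was -0.93.

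Both genes had a second single-gene probe set, and its position among the identifiers of the array bears on what the brightest one measures. Identifiers on this array follow the chromosomes: 94.8% of adjacent single-gene identifiers named genes of the same chromosome. All 20 named neighbours of the brightest Prdx2 probe set were genes of chromosome 1, between Pam and Rnf152, where the RefSeq table places the pseudogene Prdx2-ps1. Prdx2 itself is on chromosome 8, and all 20 neighbours of its dimmer probe set were genes of chromosome 8. The brightest Prdx1 probe set had 20 of 20 neighbours on chromosome 16, between Gcsam and Dppa4, and the dimmer one 20 of 20 on chromosome 4, where Prdx1 lies. For the other 6 measured enzymes, 13 to 20 of the 20 neighbours were genes of the enzyme's own chromosome.

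The dimmer probe sets showed the same directions with larger changes. Prdx2 on its dimmer probe set read 10.63, 10.69 and 10.76 in knockout livers, against 11.40, 11.31 and 11.32 in wildtype livers. The groups were apart here too, with a change of -0.65 (limma adjusted p = 0.00018 with this probe set in place of the brighter one), or 1.57-fold. Prdx1 on its dimmer probe set read 11.17, 11.26 and 11.20 in knockout livers, against 10.91, 10.93 and 10.52 in wildtype livers. Its change was 0.43 (limma adjusted p = 0.020 in place of the brighter one; 0.072 adjusted over all 34760 probe sets), with wildtype replicate 3 well below the other wildtype livers. Probe sequences were not compared with the genome, so whether a probe set measures the gene, a copy of it or both was not tested.

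**Figure D2:**
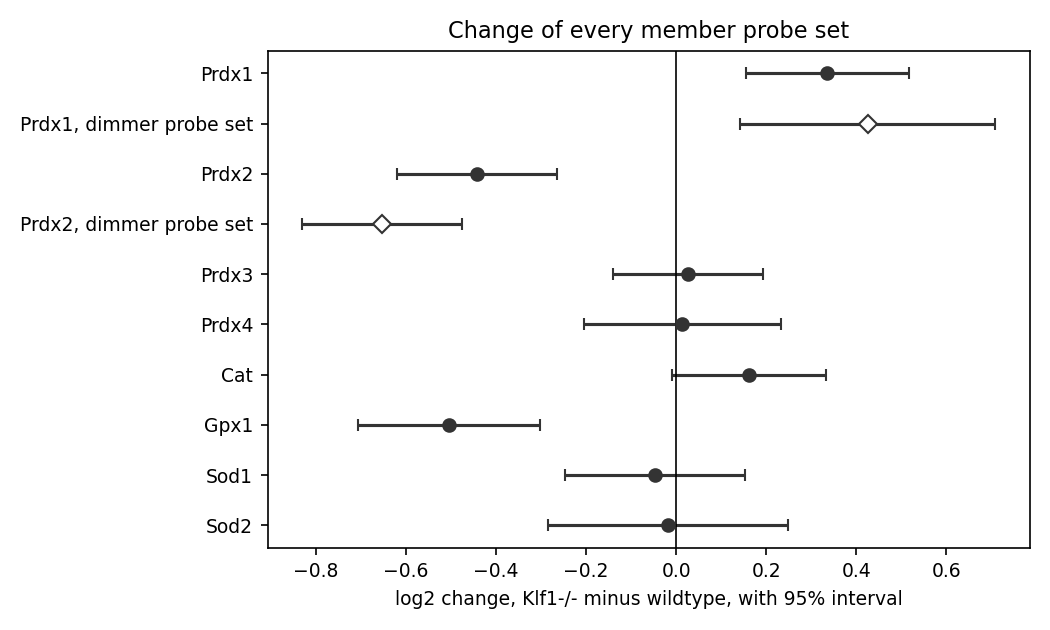
Change in log2 intensity, Klf1-/- minus wildtype, of every single-gene probe set of the 8 measured enzymes, with 95% intervals of the limma fit over all probe sets; filled circles are the brightest probe set of a gene and open diamonds the dimmer one. Both Prdx1 intervals lie above 0 and both Prdx2 intervals and that of Gpx1 lie below it, while those of Prdx3, Prdx4, Cat, Sod1 and Sod2 include 0.

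Promoter sequence is shown for the 3 called members, since Gpx1 and Prdx2 fell and Prdx1 rose in embryos without Klf1. The sequences are RefSeq's on GRCm38.p6, from 250 bases before the gene start to 50 bases after it, and capitals mark matches to the Klf1 motif CCNCNCCC on either strand.
Prdx2, chr8:84969372-84969671, plus strand: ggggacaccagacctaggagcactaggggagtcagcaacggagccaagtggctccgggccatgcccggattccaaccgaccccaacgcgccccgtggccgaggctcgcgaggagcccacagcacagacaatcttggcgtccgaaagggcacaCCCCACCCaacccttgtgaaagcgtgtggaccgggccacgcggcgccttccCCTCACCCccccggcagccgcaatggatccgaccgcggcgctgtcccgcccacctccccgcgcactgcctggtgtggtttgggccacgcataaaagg
Gpx1, chr9:108338830-108339129, plus strand: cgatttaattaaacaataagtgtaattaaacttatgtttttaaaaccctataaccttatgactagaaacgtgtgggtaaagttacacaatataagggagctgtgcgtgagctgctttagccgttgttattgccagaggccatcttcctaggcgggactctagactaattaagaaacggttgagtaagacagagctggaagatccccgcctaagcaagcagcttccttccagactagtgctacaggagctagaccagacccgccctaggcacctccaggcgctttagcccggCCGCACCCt
Prdx1, chr4:116685349-116685648, plus strand: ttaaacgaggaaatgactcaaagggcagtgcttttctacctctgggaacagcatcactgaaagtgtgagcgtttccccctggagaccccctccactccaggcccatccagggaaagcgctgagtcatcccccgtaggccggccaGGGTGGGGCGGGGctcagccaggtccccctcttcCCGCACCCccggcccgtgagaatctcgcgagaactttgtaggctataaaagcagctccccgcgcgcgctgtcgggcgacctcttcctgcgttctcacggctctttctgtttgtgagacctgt

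In the Prdx2 window the 2 matches start 98 and 47 bases before the gene start. The single Gpx1 match starts 42 bases after it, and Prdx1 has 3 matches, of which 2 overlap on the other strand. Prdx1 also holds the core of the antioxidant response element, TGACNNNGC, through which Nrf2 acts. Windows were given for 9 of the 10 listed genes; all 9 hold the Klf1 motif, called or not, as do 49.5% of all 32851 promoter windows. The antioxidant response element core was found in 2 of the 9, Prdx1 and Sod1, and in 12.4% of all windows. The GATA motif AGATAA and the FOXO motif GTAAACA were found in 0 of the 9, against 11.2% and 3.65% of all windows. Both strands were searched. Member windows ran from 47% to 68.7% G and C, beside a median of 52.7% over all windows. A match is a description of the letters and not a site of binding.

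Catalase breaks down hydrogen peroxide without a cofactor to be recycled, and red cells hold much of it. Cat read 13.03, 13.07 and 13.03 in knockout livers, against 12.91, 12.80 and 12.93 in wildtype livers. The 3 knockout livers were above the 3 wildtype livers, but the change of 0.16 ± 0.08 was not called (limma adjusted p = 0.17). Over all genes, 37.5% had groups that did not overlap, and 4 of the 8 enzymes did. Cat minus Gpx1 within an array was 0.34, 0.19 and 0.22 in knockout livers, against -0.37, -0.43 and -0.46 in wildtype livers, a difference of 0.67 (exact 2-sided permutation p = 0.10; 0.15 adjusted over 3 pairs).

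The peroxiredoxins of other compartments gave overlapping groups. Prdx3, the peroxiredoxin of the mitochondrion, read 12.18, 12.24 and 12.16 in knockout livers, against 12.19, 12.19 and 12.12 in wildtype livers. Its 95% interval for the change ran from -0.14 to 0.19. Prdx4, the peroxiredoxin of the endoplasmic reticulum, which lies on the X chromosome, read 9.01, 8.93 and 8.99 in knockout livers, against 8.93, 8.84 and 9.12 in wildtype livers. The interval for Prdx4 ran from -0.18 to 0.21. Changes of the size seen in Gpx1 lie outside both intervals.

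Superoxide dismutases gave no call either. Sod1, the copper and zinc enzyme of the cytosol, read 12.75, 12.91 and 12.92 in knockout livers, against 12.89, 12.99 and 12.84 in wildtype livers. Sod2, the manganese enzyme of the mitochondrion, read 11.85, 11.93 and 11.89 in knockout livers, against 12.05, 12.01 and 11.67 in wildtype livers. Wildtype replicate 3 was the lowest of the 6 for Sod2 and the highest for Prdx4, so the spread lay in the wildtype group. The intervals for the change ran from -0.23 to 0.14 for Sod1 and from -0.25 to 0.21 for Sod2. Sod1 minus Sod2 within an array differed by -0.03 between the groups (exact 2-sided permutation p = 0.80).

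Among themselves the 8 enzymes had within-group SDs of 0.03 to 0.10 in knockout livers and 0.02 to 0.21 in wildtype livers, beside medians of 0.09 and 0.11 over all genes. All 8 read above the upper quartile of the array on all 6 arrays. With respect to likeness over the 6 arrays, the genes closest to Gpx1 were Tpst1 (Pearson r = 0.997), Slc4a1, the red cell anion exchanger band 3 (r = 0.997), and Fgd6 (r = 0.997), out of 9968 genes at or above the median level. The closest to Prdx1 were Ofd1, Cd33 and Zswim7, each at r of 0.996 to 0.997. Such values are common here: 589 genes exceeded r = 0.95 with Gpx1 and 537 with Prdx1. The 6 points fall in the 2 genotypes, so each r includes the difference between them.

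Prdx2 lies close to the targeted gene on chromosome 8, with 5 genes between them in the RefSeq table, of which Dnase2a, Mast1, Rtbdn and Rnaseh2a were measured. Rnaseh2a, a subunit of ribonuclease H2 and the gene next to Prdx2, fell by 0.27 (change -0.27 ± 0.08; limma adjusted p = 0.039). It read 10.74, 10.92 and 10.88 in knockout livers, against 11.14, 11.11 and 11.10 in wildtype livers. The Rnaseh2a call was lost with any 1 of the 6 arrays left out, and with quantile normalization or centring on reference genes. Dnase2a, the nuclease of macrophages that degrades expelled erythroblast nuclei, was at -0.12, Mast1 at -0.09 and Rtbdn at -0.32, and these 3 were not called. Of the 3 measured genes beyond each end, Hook2 rose by 0.27 (limma adjusted p = 0.032). This call held with knockout replicate 2 left out but with no other array left out. Centring on the 75th percentile or on reference genes lost the Hook2 call too. Farsa, Syce2, Gcdh, Junb and Best2 were not called. Whether chromosome carried along with the altered Klf1 allele contributes to the Prdx2 value was not tested.

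**Figure D3:**
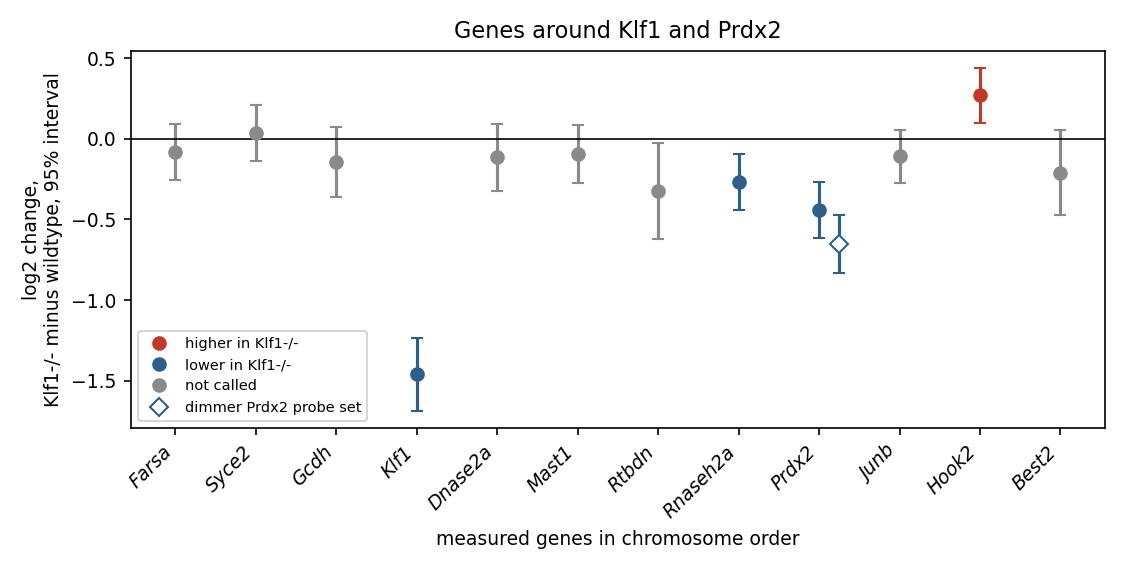
Change in log2 intensity, Klf1-/- minus wildtype, with 95% limma intervals for the measured genes from Farsa to Best2 in their order on chromosome 8; blue points were called lower, red higher, grey not called, and the open diamond is the dimmer Prdx2 probe set. Klf1 at -1.46 and the 2 Prdx2 probe sets at -0.44 and -0.65 are the lowest points.

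Several genes that serve the peroxiredoxins and glutathione peroxidases were called as well. Srxn1, sulfiredoxin, which repairs over-oxidised peroxiredoxins, read 10.85, 10.94 and 10.97 in knockout livers, against 9.27, 9.19 and 9.25 in wildtype livers. The groups lay far apart beside the spread within each, with a change of 1.68 ± 0.08 (limma adjusted p = 1.6e-07), or 3.21-fold. In its list of other peroxidases and dismutase partners, 20% of 10 measured genes were called, beside 19.1% of all genes. Srxn1 was the 1 that rose, and 1 fell, Ccs, the copper chaperone of Sod1, at -0.27 (limma adjusted p = 0.049). The Ccs call was lost without any array other than wildtype replicate 3, and with centring on reference genes or a Y-linked covariate. The remaining 8 genes, the other glutathione peroxidases among them, ran from -0.18 to 0.11. Of these, Gpx5 and Gpx6 lay below the lower quartile on all 6 arrays, so their values say little.

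Thioredoxin genes were mostly not called, with 2 of 14 lower and 1 higher, which is 21.4% called beside 19.1% of all genes. Txnrd2, the thioredoxin reductase of the mitochondrion that serves Prdx3, read 9.19, 9.30 and 9.32 in knockout livers, against 10.23, 10.12 and 10.37 in wildtype livers. That is a change of -0.97 ± 0.09 (limma adjusted p = 2.3e-05), or 1.96-fold lower, in livers where Prdx3 itself was not called. Glrx5, a mitochondrial glutaredoxin of iron-sulfur cluster assembly, fell by 0.35, and Glrx3 rose by 0.39 (limma adjusted p = 0.044), a call lost without knockout replicate 2 or 3 or wildtype replicate 2 or 3, and with quantile normalization or 75th percentile centring. Txn1 and Txnrd1, the cytosolic thioredoxin and its reductase, were at -0.03 and 0.03.

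Glutathione synthesis and recycling had 8 of 10 measured genes called, 3 higher and 5 lower, with a median change of -0.23, beside 10.8% higher and 8.26% lower over all genes. Gss, glutathione synthetase, read 8.91, 9.07 and 8.996 in knockout livers, against 9.90, 9.90 and 9.81 in wildtype livers, a change of -0.87 ± 0.08 (limma adjusted p = 2.3e-05). Hagh, the glyoxalase that releases glutathione, fell by 0.71, and Chac2, Glo1 and Gclc fell by 0.54, 0.45 and 0.30. The other way, Slc7a11, the cystine importer, rose by 0.82 ± 0.11 (limma adjusted p = 0.00035), Gsr, which reduces oxidised glutathione, by 0.40, and Gclm by 0.33. Gclc and Gclm, the catalytic and modifier subunits of glutamate-cysteine ligase, were called in opposite directions; neither was called without knockout replicate 3, and Gclc was not called without wildtype replicate 2 or with centring on reference genes.

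Glutathione transferases had 5 of 22 higher and 2 lower, where 10.8% of all genes were higher and 8.26% lower. Mgst3, a membrane-bound transferase and peroxidase, read 7.67, 7.85 and 7.79 in knockout livers, against 11.11, 11.18 and 11.29 in wildtype livers. It stood 10.7-fold lower in knockout livers (limma adjusted p = 3.2e-09), the largest change in the antioxidant lists. Gsta4, which clears the lipid peroxidation product hydroxynonenal, rose by 1.05 ± 0.11 (limma adjusted p = 8.3e-05). Gstz1, Gstk1, Gstp1 and Gstm5 rose by 0.31 to 0.37, and Gstp3 was at -0.32 (limma adjusted p = 0.045). The number higher was 1 to 4 with 1 array left out, and moved least without knockout replicate 1; the number lower was 1 without knockout replicate 1 or 3 or wildtype replicate 2 or 3. Gstp1 and Gstp3 are closely similar copies whose signals may not be separable.

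NADPH feeds both the glutathione and the thioredoxin systems. Of its listed supply genes, G6pdx had no single-gene probe set. Of the 13 measured, 4 were higher, where 10.8% of all genes were, or 2 without knockout replicate 2. The number lower was 0, or 1 with 75th percentile centring, with the filter on dim genes and with trend and robust moderation. Pgd, of the pentose phosphate pathway, read 10.92, 11.13 and 11.03 in knockout livers, against 10.60, 10.56 and 10.49 in wildtype livers (change 0.48 ± 0.08; limma adjusted p = 0.0024). Me1, malic enzyme, Pgls, the step before Pgd, and Mthfd2 of folate metabolism rose by 0.37, 0.36 and 0.36. The Me1 and Pgls calls were lost without knockout replicate 2, that of Pgls also without knockout replicate 3, and that of Me1 also with quantile normalization, 75th percentile centring and the mean of probe sets.

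**Figure D4:**
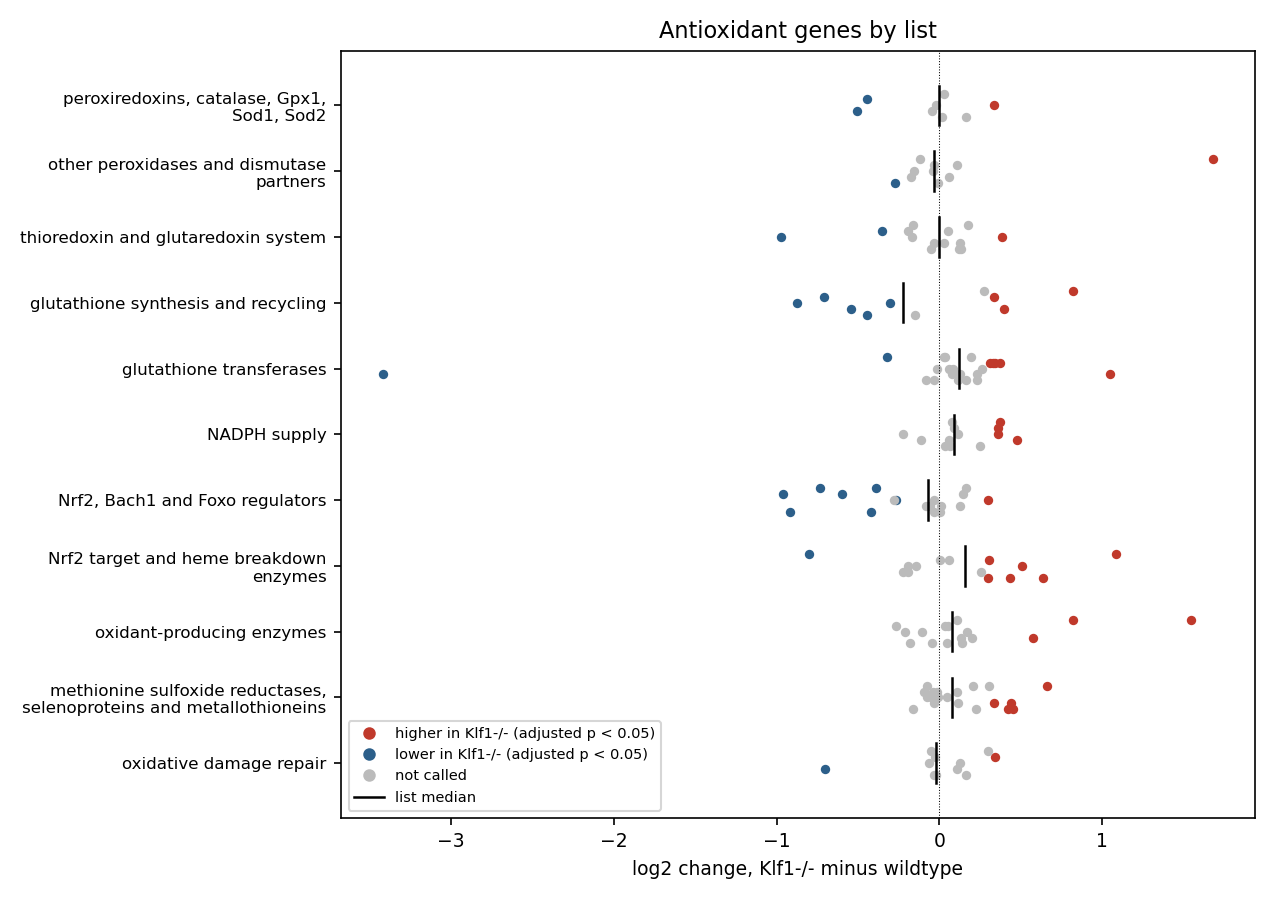
Change in log2 intensity, Klf1-/- minus wildtype, of each measured gene in the antioxidant lists, with red points called higher, blue points called lower, grey points not called and a black bar at the list median. Most points lie close to 0, with Mgst3 at -3.42 and Srxn1 at 1.68 farthest out.

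Of 18 regulators of these genes, 7 were called lower and 1 higher, where 8.26% and 10.8% of all genes were; the number lower was 5 with centring on reference genes and 5 to 7 with 1 array left out. Mafk, a small Maf partner of Nrf2, Bach1 and Nfe2, read 8.49, 8.43 and 8.42 in knockout livers, against 9.41, 9.45 and 9.35 in wildtype livers (change -0.96 ± 0.07; limma adjusted p = 8.4e-06). Sesn1, a stress-induced sestrin, fell by 0.92, and Nfe2, the p45 subunit of NF-E2, by 0.73. Foxo3, a transcription factor that drives antioxidant genes in red cell precursors, read 9.72 in all 3 knockout livers, against 10.22, 10.34 and 10.38 in wildtype livers. Nfe2l1, Foxo4 and Mafg fell by 0.42, 0.39 and 0.27, and Foxo1 rose by 0.30. The Foxo1 call was lost with quantile normalization, with 75th percentile centring and without any 1 array other than wildtype replicate 1. That of Mafg was lost without any 1 array other than wildtype replicate 1 and with centring on reference genes, and that of Nfe2l1 without knockout replicate 2 and with the same centring. Nfe2l2, which encodes Nrf2, was at 0.12 ± 0.08, its inhibitor Keap1 at -0.03 and the repressor Bach1 at 0.0044, and these 3 were not called.

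Among 14 Nrf2 target and heme breakdown enzymes 6 rose and 1 fell, where 10.8% of all genes were higher and 8.26% lower. The number that rose was 3 when knockout replicate 2 was left out. The number that fell was 2 when wildtype replicate 1 was left out. Blvrb, biliverdin reductase B of red cells, read 12.11, 12.28 and 12.17 in knockout livers, against 12.92, 13.03 and 13.02 in wildtype livers (change -0.80 ± 0.08; limma adjusted p = 4.9e-05). Ftl1, a ferritin chain with many genomic copies, rose by 1.09, Abcc1, an exporter of glutathione conjugates, by 0.64 and Hmox1, the inducible heme oxygenase, by 0.30. The Hmox1 call was lost without any 1 knockout array or wildtype replicate 1, and with centring on the 75th percentile or on reference genes. Ephx1, Cbr1 and Nqo2 rose by 0.51, 0.43 and 0.31. Leaving out knockout replicate 2 or wildtype replicate 2 lost the Ephx1 and Nqo2 calls, and 75th percentile centring lost that of Nqo2. Of 16 oxidant-producing enzymes 3 rose and 0 fell, which is 18.8% called beside 19.1% of all genes. The number that fell was 1 without knockout replicate 1 or wildtype replicate 1. Nox3, not called, lay below the lower quartile on all 6 arrays. Ero1a, the endoplasmic reticulum oxidase that makes hydrogen peroxide as it forms disulfides, read 12.81, 12.66 and 12.56 in knockout livers, against 11.08, 11.06 and 11.26 in wildtype livers (change 1.55 ± 0.09; limma adjusted p = 1.3e-06). Rac2, a subunit of the phagocyte oxidase, rose by 0.82 and Mpo, the neutrophil peroxidase, by 0.58.

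Methionine sulfoxide reductases, metallothioneins, selenoproteins and other selenium-related genes had 5 of 20 higher and 0 lower. Over all genes 10.8% were higher and 8.26% lower. The largest rise was that of Selenbp1, a selenium-binding protein, at 0.66. Mt1 was at 0.45, Selenow at 0.44, Selenbp2 at 0.42 and Msra at 0.33. The Msra call was lost without knockout replicate 2 or 3 or wildtype replicate 2 or 3. In the repair of oxidised DNA, 1 of 11 genes fell and 1 rose, which is 18.2% called beside 19.1% of all genes. Neil3, a glycosylase, fell by 0.70 ± 0.08 (limma adjusted p = 9.4e-05). Mutyh was at 0.34, a call lost without knockout replicate 3 or wildtype replicate 2. Over all 10 lists together, 148 of 157 genes were measured, 30 rose and 19 fell, which is 33.1% called beside 19.1% of all genes, with a median change of 0.05. The number that rose was 18 without knockout replicate 2 and 19 without knockout replicate 3. The lists were written with results of these data known, and nothing particular to them is read from these shares.

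Lists of markers for the cells of the liver were read in the same comparison, in which 8.26% of all genes were lower and 10.8% higher. Red cell markers were lower for 12 of 13 measured genes, with a median change of -0.97, and their summed intensity ran from 37301 to 39971 in knockout livers, against 71026 to 78212 in wildtype livers. Tspo2, Ermap and Epb42, proteins of the red cell membrane or its precursors, were at -3.86, -1.59 and -1.50. Macrophage markers, Cd5l, Adgre1 and Timd4 among them, were lower for 7 of 12 (3778 to 4219 in knockout, against 5034 to 6117 in wildtype livers). Granulocyte markers, Mpo among them, were higher for 5 of 10 (7315 to 9219, against 5713 to 6397), or 3 without knockout replicate 3 or wildtype replicate 3 and 7 without wildtype replicate 1, and megakaryocyte markers, led by Itga2b at 1.05, for 6 of 6 (18689 to 24374, against 14575 to 15331). Hepatoblast markers were lower for 2 of 11 (60322 to 64206, against 62389 to 75657; 0 or 1 without any 1 knockout array or wildtype replicate 3) and endothelial markers higher for 2 of 9 (4782 to 5669, against 4309 to 6018; 5 without wildtype replicate 3, and 0 or 1 without any other array but knockout replicate 1). Of all these markers 0 lay below the lower quartile on all 6 arrays. The 8 enzymes are made in many of these cell types, and the part of a changed cell makeup in their values was not tested.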

How the data were processed

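The authors deposited 1 table of intensities of 34760 probe sets, on a linear scale from 5.6 to 27245. The submitters' processing notes name RMA and Affymetrix Power Tools 1.8.6; the genome build is not given in the sources used here. Because RMA equalises the arrays, a change of total RNA cannot be seen. Log2 was taken with no further normalization or filter. Of the probe sets, 21640 name 1 gene in the platform annotation, 1321 several and 11799 none here; the brightest single-gene probe set stood for each of 19937 genes. The 2 groups of 3 arrays were set against each other with limma 3.58.1 (lmFit and eBayes, R version 4.3.3), with 2-sided p-values adjusted by Benjamini-Hochberg over all genes. The fit was run on simulated data. All changes planted there were larger than those of the called enzymes on their brightest probe sets, so it does not cover changes that small. Pairs of members were compared by exact permutation.

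Members, lists and alternatives were chosen with earlier results of these data known. Named were all members, Klf1, up to 3 called genes with the largest change per list (or, in a list without calls, the 2 of smallest p), genes between Klf1 and Prdx2 and the 3 beyond each end, and the 3 genes most like the largest rise and fall. The other called genes of the antioxidant lists, Txn1, Txnrd1, Nfe2l2, Keap1 and Bach1 were named after their values were seen. As alternatives, arrays were rescaled in 3 ways (quantiles, the 75th percentile, reference genes), and the fit was repeated with a filter on dim genes, the mean of probe sets, a trend with robust moderation, array weights, a replicate block, a Y-linked covariate and leaving out each array. Promoter windows of RefSeq were searched for each motif on both strands. The planned comparison of protein sequences was not run.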

Additional observations from a re-analysis of the deposited data

How the results depend on the processing

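Gpx1 and Prdx2 were called lower under every alternative run, from -0.55 to -0.45 and from -0.65 to -0.40, and Prdx1 was called higher under all but 1, from 0.28 to 0.43; Cat was not called under any. The number of enzymes higher was 0 to 1 with 1 array left out. Genes not called changed sign near 0: Prdx3 was at -0.020 and Prdx4 at -0.033 with 75th percentile centring, where Syce2 was at -0.012, and with quantile normalization Prdx4 was at -0.022 and Sod2 at 0.018. Txn1 was at 0.039 with quantile normalization, Txnrd1 at -0.019 and Bach1 at -0.043 with 75th percentile centring, and Bach1 at -0.0057 with array weights. With 1 array left out Prdx4 ran from -0.049 to 0.092, Sod1 from -0.080 to 0.0077, Sod2 from -0.14 to 0.052, Txn1 from -0.089 to 0.037, Txnrd1 from -0.020 to 0.092 and Bach1 from -0.011 to 0.017. Prdx2 minus Prdx1 was -0.93 with means of probe sets and -1.08 with the dimmer probe sets, an alternative added after seeing the data. Of the pathway genes 18 to 29 were higher with 1 array left out. Over all genes 1371 to 2106 were higher and 1026 to 1643 lower with 1 array left out, and 986 were lower with centring on reference genes. Lower calls were 43.2% of all calls, and 55.5% with 75th percentile centring, which put the median of all genes at -0.07. The same share was 35.1% with centring on reference genes and 44.6% with quantile normalization. The causes were not tested.

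Deviations of same-numbered livers from their group means correlated at r = -0.16, -0.22 and 0.18. With 3 arrays per group, whose deviations constrain each other, these values cannot settle whether the numbers pair the livers. A replicate block left the enzyme calls at 1 higher and 2 lower and lost the calls of Ccs, Glrx3, Mafg, Rnaseh2a and Hook2 among the genes named. For the within-array difference of Prdx2 and Prdx1 a block is no check. The mean of the paired differences equals the difference of the group means.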
